A study of Rattus norvegicus with 16 samples.

Results

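Collagen genes are described here in rat kidney cells kept at a normal or an acid pH of the medium. Every gene of the count table whose symbol is Col, a number, the letter a and another number was taken, which gave 42 of 32623 genes. By the structure of their products 10 of them code for fibrillar collagens, 6 for the type IV collagens of basement membranes and 26 for other collagens. Col1a2, Col6a3 and Col21a1 were not analysed here.

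NRK-52E, an epithelial line, and NRK-49F, a fibroblast line, both come from normal rat kidney. NRK-52E cells grew on filter inserts and NRK-49F cells on the bottom of the wells below, so that the lines shared a medium without touching. After 24 h in medium without added serum, each co-culture received medium of pH 7.4 or pH 6.0 for 48 h, and poly(A)-enriched RNA of each line was sequenced separately. The study asked how both kinds of cell respond to an acid surrounding while they exchange soluble signals.

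The 16 libraries form 4 groups of 4. Replicates 1, 2, 5 and 6 are NRK-52E at pH 7.4, replicates 3, 4, 7 and 8 are NRK-52E at pH 6.0, replicates 9, 10, 13 and 14 are NRK-49F at pH 7.4, and replicates 11, 12, 15 and 16 are NRK-49F at pH 6.0. Values of a group are given in this order. The library names also hold a second number of unstated meaning, 21 (replicates 1 to 4) or 22 (5 to 8) in NRK-52E and 20 (9 to 12) or 21 (13 to 16) in NRK-49F, called the name number below. NRK-52E libraries held 17760185 to 20612657 fragments counted on genes at pH 7.4 and 16844811 to 23856187 at pH 6.0. NRK-49F libraries held 17518187 to 27607214 at pH 7.4 and 16201084 to 34784862 at pH 6.0. Levels are given as FPM, the count of a gene scaled to a common library size (edgeR's cpm after TMM scaling). Tests compare libraries, not genes. Where genes are ranked or set in a ratio, this is by counts alone, because no gene lengths were used. The labels do not say that replicates were separate cultures, so p-values measure only the spread between these samples, which may be technical. A gene was called where both edgeR's quasi-likelihood test and DESeq2 gave a Benjamini-Hochberg FDR below 0.01 over all genes tested. FDR values printed are edgeR's, fold changes are on the log2 scale, and ± is the SD over 4 libraries unless SE is named.

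Collagens are proteins of the extracellular matrix built from chains that wind into a triple helix. Fibrillar collagens assemble into the banded fibrils of the interstitium, type IV collagens form the sheet-like network under epithelia, and fibril-associated, beaded-filament and short-chain collagens link or organise these structures. In kidney, tubular cells rest on a basement membrane, and fibroblasts of the interstitium are known as a main source of fibrillar collagen.

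The share of collagens in all counts was lower in NRK-52E at pH 6.0 than in the other groups. Collagens took 1.39, 1.49, 1.5 and 1.44% of all counts in NRK-52E at pH 7.4 and 0.507, 0.565, 0.486 and 0.388% at pH 6.0. In NRK-49F the share was 1.0, 1.04, 0.821 and 1.09% at pH 7.4 and 1.20, 1.08, 1.12 and 1.0% at pH 6.0. The 4 acid NRK-52E libraries were thus all below the other 12, and the NRK-49F groups overlapped. Summed over the 42 genes, the level was 12300 ± 189 FPM in NRK-52E at pH 7.4, 4810 ± 715 at pH 6.0, 10900 ± 1040 in NRK-49F at pH 7.4 and 11900 ± 822 at pH 6.0. These sums are descriptions and were not tested. Fewer cells of a kind and less RNA per cell cannot be told apart in them.

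The 3 classes did not share these sums equally. Fibrillar genes summed to 8490 ± 139 FPM in NRK-52E at pH 7.4 and 3710 ± 691 at pH 6.0, with Col3a1 giving 73.3 and 70.9% of the sum. In NRK-49F they summed to 7410 ± 614 and 9000 ± 959 FPM, and Col1a1 gave 83.7 and 92.0%. In each line 1 gene thus took most fibrillar counts, and it was a different gene in each, with no correction for gene length. Basement membrane genes summed to 1160 ± 57.9 and 422 ± 53.6 FPM in NRK-52E and to 326 ± 64.5 and 418 ± 33.5 FPM in NRK-49F. Col4a5 led this class in NRK-52E and Col4a1 in NRK-49F. The other collagens summed to 2680 ± 91.4 and 678 ± 32.4 FPM in NRK-52E, led by Col16a1, and to 3180 ± 395 and 2500 ± 272 FPM in NRK-49F, led by Col8a1.

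**Figure D1:**
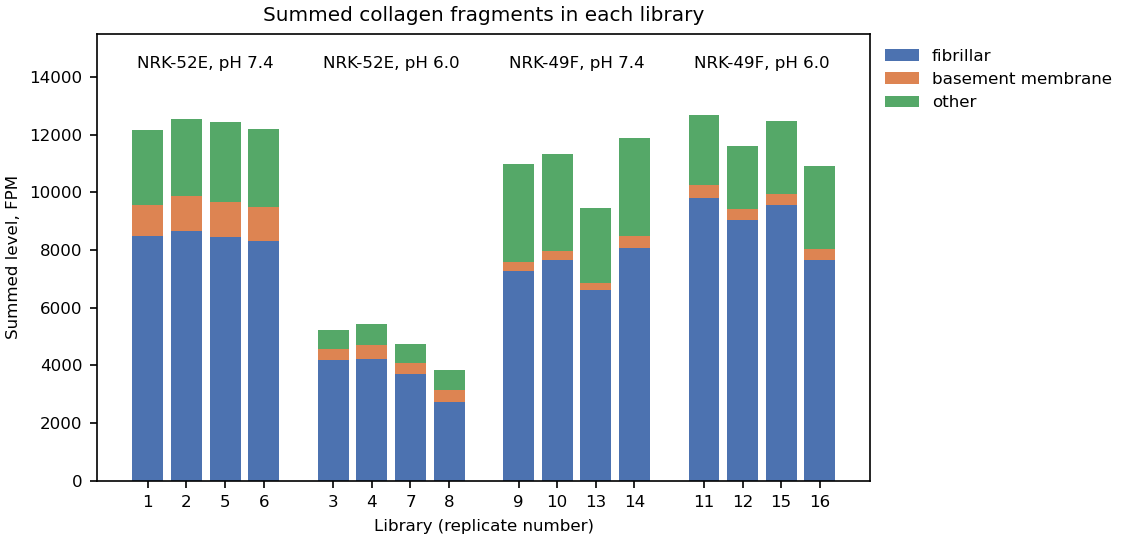
Summed level (FPM) of fibrillar, basement membrane and other collagen genes in each of the 16 libraries, stacked by class and grouped by cell line and pH (n = 4 per group). In NRK-52E all 3 sums were lower at pH 6.0, while in NRK-49F the fibrillar and basement membrane means were higher at pH 6.0.

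Markers of the cell types were read beside the collagens. Of 12 fibroblast markers, among them Col1a1 and Col3a1, 11 were tested between the lines at pH 7.4, and 9 were called higher in NRK-49F and 1, Col3a1, lower (33.3% of all genes tested in each direction). Pdgfra, a receptor of mesenchymal cells, averaged 0.286 and 0.0561 FPM in NRK-52E and 392 and 368 FPM in NRK-49F at pH 7.4 and pH 6.0. Prrx1, a mesenchymal transcription factor, averaged 0.0102 and 0 FPM in NRK-52E and 64.9 and 82.2 FPM in NRK-49F. NRK-52E libraries thus carried the highest Col3a1 with these 2 markers near 0, and Thy1 was at 0 in all groups. Other markers of the list were present in NRK-52E at pH 7.4, Vim at 684, Pdgfrb at 46.4, Postn at 45.0 and S100a4 at 37.5 FPM, and Dcn was at 0.718 FPM beside 0.47 FPM in NRK-49F. The fibroblast list summed to 7060 and 3020 FPM in NRK-52E, with Col3a1 its most abundant gene, and to 16800 and 12200 FPM in NRK-49F, with Vim leading at pH 7.4 and Col1a1 at pH 6.0. For pH, 6 of 8 tested fibroblast markers were called lower in NRK-52E (28.5% of all genes) and 5 of 10 in NRK-49F (19.4% of all genes).

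The epithelial list fitted its line only in part. Its 10 genes summed to 493 and 370 FPM in NRK-52E and to 851 and 208 FPM in NRK-49F, and the keratin gene Krt8 gave 87.3 and 85.2% of the sum in NRK-52E and 99.6 and 98.9% in NRK-49F. Ocln and Tjp3, genes of tight junctions, averaged 41.2 and 17.3 FPM in NRK-52E at pH 7.4 and 0 and 1.32 FPM in NRK-49F. Defining epithelial genes were near or at 0 in NRK-52E at pH 7.4, with Cdh1 at 1.62, Epcam at 0.0221 and Krt18 at 0.0853 FPM and Cldn7 and Esrp1 at 0. Between the lines at pH 7.4, 1 of 5 tested epithelial markers was called higher in NRK-49F and 3 lower (33.3% of all genes each). With the acid medium 1 of 5 was called higher (28.2% of all genes) and 4 lower (28.5%) in NRK-52E, and 1 of 3 lower in NRK-49F (19.4%). The part of these markers in the collagen results was not tested.

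Most measured collagens were lower in NRK-52E cells kept in the acid medium. Of 25 members tested there, 17 were called lower at pH 6.0 and 4 higher, together 84.0%, beside 56.8% of all 13735 genes tested (28.5% lower and 28.2% higher). The median log2 fold change was −1.24 over these members (−0.74 with DESeq2 alone) and 0.00 over all genes tested. Col3a1, Col5a2, Col4a5 and Col16a1, which gave most of the collagen counts of the line, all fell, and Col2a1 and Col20a1 rose. The other 17 members had too few counts to be tested, and those tested had passed a filter on low counts, so the share describes only what was measurable.

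Among fibrillar collagens, 5 of 7 tested genes were called in NRK-52E (71.4%, beside 56.8% of all genes), 4 lower (57.1%, beside 28.5%) and 1 higher (14.3%, beside 28.2%). Col3a1, the chain of type III collagen that lies in fibrils with type I, was at 6320, 6270, 6190 and 6100 FPM at pH 7.4 and at 3170, 2970, 2580 and 1800 FPM at pH 6.0. Every acid library lay below every control library, with replicate 8 the lowest. Col3a1 fell by 1.26 on the log2 scale (SE 0.16, edgeR FDR = 3.78e-05). Col5a2, a chain of type V collagen that starts fibrils and limits their width, was at 1570, 1700, 1660 and 1670 FPM and then at 669, 793, 713 and 663 FPM. The groups again did not overlap, and Col5a2 fell by 1.24 (SE 0.09, edgeR FDR = 8.55e-07). Its sister chain Col5a3 was at 206, 208, 173 and 169 FPM and then at 79.3, 87.2, 62.8 and 69.4 FPM. All acid libraries were lower, and the log2 fold change was −1.36 (SE 0.12, edgeR FDR = 3.08e-06).

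Col5a1, the main type V chain, fell less, from 343, 420, 373 and 338 FPM to 207, 290, 257 and 150 FPM. The groups did not overlap, and the log2 fold change of −0.73 (edgeR FDR = 0.00275) was no longer called without replicate 3 (−0.70, edgeR FDR = 0.0116). Col1a1, the major chain of type I collagen, was low in this line, at 25.1, 28.2, 21.3 and 19.6 FPM at pH 7.4 and 16.6, 18.3, 20.4 and 16.9 FPM at pH 6.0. The highest acid library exceeded the lowest control library, and Col1a1 was not called (log2 fold change −0.41, edgeR FDR = 0.0224). With library totals in place of TMM, or with all 16 libraries in 1 fit, it was called lower, at −0.61 and −0.42. Col11a2, a chain of type XI collagen, was at 26.9 to 33.7 FPM and 27.3 to 40.7 FPM and was not called, except without replicate 8 (log2 fold change 0.33, edgeR FDR = 0.00716).

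Col2a1, the type II collagen of cartilage, went the other way. It had 0, 3, 2 and 0 counts in the control libraries and 272, 419, 497 and 184 counts in the acid ones, or 16.6, 18.8, 20.4 and 8.65 FPM. All 4 acid libraries were far above the controls, and replicate 8 was the lowest of them. Means were 0.0515 FPM in the controls and 16.1 FPM in acid medium, and Col2a1 rose by 8.03 on the log2 scale (SE 0.51, edgeR FDR = 4.17e-07), a size that rests on 5 control counts. Of the other cartilage genes tested 0 were called higher, and most of the list had too few counts to be tested. Of 12 cartilage markers 4 were tested in NRK-52E, and 2 were called lower, the matrix gene Comp and Hapln1 (28.5% of all genes). The list summed to 29.1 FPM at pH 7.4 and 9.23 FPM at pH 6.0, mostly Comp, with Sox9, the factor known to drive Col2a1 in cartilage, at 0 in both groups and Acan at 0 and 0.0215 FPM. Of 8 bone markers 4 were tested, 2 called higher (28.2% of all genes) and 1 lower, and their sum of 6.72 and 16 FPM came mostly from Runx2.

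Of 5 type IV genes tested in NRK-52E, 3 were called, all lower (60.0%, beside 28.5% of all genes), and Col4a6 was not tested. Col4a5 and Col4a4, chains of the network best known from the glomerular basement membrane, fell, while Col4a1 and Col4a2, the chains found in nearly all basement membranes, were not called. The difference between the chains was not tested. Col4a5 was at 885, 969, 996 and 954 FPM at pH 7.4 and at 234, 294, 250 and 293 FPM at pH 6.0. No acid library came near the controls, and the log2 fold change was −1.85 (SE 0.11, edgeR FDR = 2.27e-07). Col4a4 was at 23.0, 26.8, 27.1 and 24.9 FPM and then at 1.47, 2.56, 1.5 and 3.86 FPM. It was low in all acid libraries and fell by 3.45 (SE 0.28, edgeR FDR = 1.99e-06). Col4a3, whose chain joins both, had 11 to 29 counts per library at pH 7.4 and 3 to 8 at pH 6.0 and was also called lower (log2 fold change −1.79).

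Col4a1 was at 84.5, 92.8, 73.7 and 72.8 FPM in NRK-52E at pH 7.4 and at 66.5, 97.3, 65.6 and 52.6 FPM at pH 6.0. Col4a2, its partner chain, was at 95.9, 130, 99.5 and 95.9 FPM and then at 81.0, 106, 81.4 and 53.7 FPM. In both genes the groups overlapped, because replicate 4 was as high as the controls. Neither was called, with log2 fold changes of −0.22 (edgeR FDR = 0.24) for Col4a1 and −0.41 (edgeR FDR = 0.0603) for Col4a2. Counts of Col4a5 per count of Col4a1 averaged 11.9 (10.4 to 14) at pH 7.4 and 3.98 (3.02 to 5.58) at pH 6.0, so the ratio was lower in every acid library.

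All 13 tested collagens of the third class were called in NRK-52E, 10 lower (76.9%, beside 28.5% of all genes) and 3 higher (23.1%, beside 28.2%). Among the fibril-associated genes, whose products lie on the surface of fibrils, Col16a1 was at 1960, 2010, 2200 and 2150 FPM at pH 7.4 and at 370, 368, 360 and 316 FPM at pH 6.0. Col12a1 was at 150, 203, 141 and 129 FPM and then at 16.2, 18.3, 9.92 and 11.4 FPM. Col14a1 was at 269, 257, 244 and 257 FPM and then at 25.2, 23.9, 21 and 33.9 FPM. In these 3 genes every acid library was below every control library by a wide gap. The log2 fold changes were −2.58 for Col16a1 (SE 0.097, edgeR FDR = 3.14e-08), −3.50 for Col12a1 (SE 0.22, edgeR FDR = 3.65e-07) and −3.32 for Col14a1 (SE 0.15, edgeR FDR = 6.97e-08).

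Col20a1, a further fibril-associated collagen, rose instead. It was at 54.7, 54.0, 63.3 and 48.6 FPM at pH 7.4 and at 190, 252, 214 and 262 FPM at pH 6.0. The groups lay far apart, and Col20a1 rose by 2.04 on the log2 scale (SE 0.13, edgeR FDR = 3.70e-07). In RefSeq it overlaps Chrna4 on the opposite strand by the positions of the whole genes. Whether the exons counted overlap was not checked. The counting options given by the study include none for strand and none for counting a fragment for several overlapping genes. How far the overlap touches these counts was not tested. In this line Chrna4 itself averaged 0.883 FPM in the control and 7.56 FPM in the acid libraries.

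Type VI collagen forms beaded filaments around cells. Its chain gene Col6a2 was at 44.4, 47.4, 44.1 and 43.7 FPM in NRK-52E at pH 7.4 and at 11, 13, 12 and 13 FPM at pH 6.0. Col6a1, the chain paired with it, was at 14.2 to 20.3 FPM and then at 9.78 to 12 FPM. Both were lower in all acid libraries, Col6a2 by a far wider gap (log2 fold change −1.88, SE 0.11, edgeR FDR = 2.34e-07). Col6a1 was called at −0.63 (edgeR FDR = 0.00408), and the call was lost without replicate 2 (−0.51), 3 (−0.62), 6 (−0.64) or 7 (−0.60). Counts of Col6a2 per count of Col6a1 averaged 2.78 (2.33 to 3.10) at pH 7.4 and 1.15 (1.04 to 1.38) at pH 6.0. Col6a6, which can take the place of another type VI chain, had 213, 316, 304 and 248 counts at pH 7.4 and 9, 13, 9 and 5 counts at pH 6.0. It was low in every acid library and fell by 4.79 (SE 0.26, edgeR FDR = 1.79e-07). Rpl29, which overlaps it on the opposite strand in RefSeq, averaged 716 and 986 FPM in the same groups.

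Col18a1, a basement membrane proteoglycan whose end fragment is known as endostatin, was at 19.7, 18.6, 20.5 and 19.8 FPM in NRK-52E at pH 7.4 and at 3.73, 3.19, 3.85 and 5.03 FPM at pH 6.0. The control libraries lay close together and above all acid ones, and Col18a1 fell by 2.33 (SE 0.17, edgeR FDR = 8.95e-07). Short-chain collagen genes also fell. Col8a1 was at 2.5, 3.5, 4.5 and 4.1 FPM and then at 0.489, 0.315, 0.328 and 0.611 FPM, and Col8a2 at 36.3, 35.1, 35.9 and 35.6 FPM and then at 16.8, 22.7, 18.3 and 30.0 FPM. All acid libraries were lower in both, with replicate 8 closest to the controls for Col8a2. The log2 fold changes were −3.09 for Col8a1 (edgeR FDR = 1.01e-05) and −0.72 for Col8a2 (edgeR FDR = 0.00341). Without replicate 3 or 7 Col8a2 was not called (−0.61 and −0.62).

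Low members made up the rest. Col17a1, a transmembrane collagen of hemidesmosomes, had 7, 0, 2 and 3 counts in NRK-52E at pH 7.4 and 39, 43, 41 and 14 at pH 6.0. Col23a1, also a transmembrane collagen, had 0 to 3 and 11 to 16 counts. Both genes were near the limit of counting at pH 7.4 and were called higher at pH 6.0 (log2 fold changes 3.55 and 2.82). Where genes had to reach 1 CPM in 4 or more libraries, 2 members in place of 4 were called higher. Col9a2, a chain of a fibril-associated cartilage collagen, had 22 to 36 and 8 to 16 counts and was called lower (log2 fold change −1.24).

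In NRK-49F fewer collagens were called between the media. Of 19 members tested, 6 were called lower at pH 6.0 and 2 higher, together 42.1%, beside 37.8% of all 13339 genes tested (19.4% lower and 18.4% higher), so the share of collagens called was near that of all genes. The median log2 fold change was −0.24 over these members and 0.00 over all genes, and that of the members was −0.36 without replicate 13, −0.45 with name number 20 alone and −0.01 with 21 alone. Col3a1, Col5a3, Col12a1, Col14a1, Col16a1 and Col6a2 fell and Col20a1 and Col18a1 rose, while the dominant Col1a1 missed the threshold of edgeR. Without replicate 14 the members called higher were 5 and without replicate 16 they were 4. The remaining 23 members were not tested for lack of counts.

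Of the fibrillar genes 2 of 7 tested were called (28.6%, beside 37.8% of all genes), both lower (19.4% of all genes). Col3a1 was at 410, 399, 411 and 612 FPM at pH 7.4 and at 31.6, 36.3, 59.6 and 87.9 FPM at pH 6.0. All acid libraries were far below the controls, among which replicate 14 stood highest, and Col3a1 fell by 3.10 (SE 0.29, edgeR FDR = 3.90e-06). Col5a3 was at 95.9, 97.6, 100 and 159 FPM and then at 14, 11, 13 and 18 FPM. It showed the same split, with replicate 14 again the highest, and fell by 3.05 (SE 0.19, edgeR FDR = 2.11e-07).

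Col1a1 had 6160, 6560, 5640 and 6460 FPM in NRK-49F at pH 7.4 and 8990, 8380, 8820 and 6960 FPM at pH 6.0. Every acid library was above every control library, and replicate 16 was the closest to them. The log2 fold change of 0.40 (SE 0.11) had an FDR of 0.0103 in edgeR and of 0.000625 in DESeq2, so that Col1a1 was not called. It was called without replicate 16 (0.48, edgeR FDR = 0.00243) and with DESeq2's size factors (0.41), library totals (0.45), a cutoff of 1 CPM (0.42) or the name number as a covariate (0.40). Sgca overlaps Col1a1 in RefSeq and averaged 2.5 and 2.2 FPM in these groups. In NRK-52E Sgca averaged 0.224 FPM at pH 7.4 and 3.5 FPM at pH 6.0, beside 23.6 and 18 FPM of Col1a1. Counts of Col3a1 per count of Col1a1 averaged 0.0737 (0.0608 to 0.0949) at pH 7.4 and 0.0068 (0.00351 to 0.0126) at pH 6.0. In NRK-52E the same ratio averaged 269 (223 to 311) and 147 (107 to 191), so it was lower at pH 6.0 in both lines.

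The other fibrillar genes of NRK-49F were not called. Col5a1 was at 325, 330, 220 and 488 FPM at pH 7.4 and 362, 277, 290 and 260 FPM at pH 6.0, and Col5a2 at 267, 249, 248 and 340 FPM and then 364, 318, 351 and 296 FPM. Both overlapped between the media, with log2 fold changes of −0.21 and 0.25. Col11a2 ranged from 2.77 to 7.59 FPM and from 2.72 to 3.76 FPM (log2 fold change −0.61, edgeR FDR = 0.0737). Col27a1, a fibrillar collagen known from cartilage, had 182, 195, 120 and 524 counts and then 324, 184, 517 and 616 counts. Its FPM ranges of 7.90 to 20.7 and 12.2 to 19.3 overlapped, and it was called only without replicate 14 (log2 fold change 0.72, edgeR FDR = 0.00704; with all libraries 0.34). Col2a1 had 0, 1, 0 and 0 counts at pH 7.4 and 13, 2, 17 and 3 counts at pH 6.0, and was not tested. In this line the cartilage list summed to 33.5 and 82.6 FPM, with Sox9 at 17.2 and 70.7 FPM. Of 5 tested cartilage markers 1, Sox9, was called higher (18.4% of all genes) and 1, Hapln1, lower (19.4% of all genes). Both shares were near those of all genes. Of the bone markers only Runx2 was tested, and it was called lower (19.4% of all genes).

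Of the 3 tested type IV genes 0 were called in NRK-49F (beside 37.8% of all genes), since 0 had an edgeR FDR below 0.01. However, 2 had an unadjusted edgeR p below 0.05, and DESeq2 alone passed Col4a1 and Col4a2. Col4a1 was at 125, 133, 107 and 165 FPM at pH 7.4 and at 223, 187, 181 and 155 FPM at pH 6.0, and Col4a2 at 108, 100, 65.2 and 150 FPM and then at 178, 144, 156 and 152 FPM. Replicate 14 was the control library that reached into the acid range in both genes. The log2 fold changes were 0.48 (edgeR FDR = 0.0121) for Col4a1 and 0.56 (edgeR FDR = 0.0225) for Col4a2. Both were called without a filter on low counts (0.49 and 0.57). Without replicate 14 both were called, at 0.60 and 0.77, and Col4a1 also without replicate 16, at 0.56. Col4a5 was at 89.6, 97.5, 72.2 and 85.4 FPM and then at 67.3, 69.4, 66.6 and 91.8 FPM, where replicate 16 stood apart, and its log2 fold change was −0.24 (edgeR FDR = 0.127). Col4a4 had 6, 5, 4 and 14 counts and then 0, 0, 5 and 4 counts and was not tested.

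Of 9 tested members of the third class, 4 were called lower (44.4%, beside 19.4% of all genes) and 2 higher (22.2%, beside 18.4%) in NRK-49F. Col16a1 was at 815, 814, 695 and 972 FPM at pH 7.4 and at 338, 359, 454 and 519 FPM at pH 6.0. Col12a1 was at 83.2, 93.0, 72.1 and 57.2 FPM and then at 35.2, 31.0, 18.5 and 19.2 FPM, and Col14a1 at 26.2, 27.7, 20 and 16.8 FPM and then at 4.56, 4.24, 5.43 and 3.69 FPM. These fibril-associated genes did not overlap between the media. They fell by 1.0 (Col16a1, edgeR FDR = 0.00011), 1.58 (Col12a1, edgeR FDR = 0.000104) and 2.35 (Col14a1, edgeR FDR = 1.71e-06) on the log2 scale. With name number 21 alone Col16a1 was not called (−0.80, edgeR FDR = 0.0192).

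Col20a1 was at 6.06, 4.90, 4.48 and 7.08 FPM in NRK-49F at pH 7.4 and at 120, 93.3, 75.3 and 54.5 FPM at pH 6.0. Every acid library was several times above every control, and Col20a1 rose by 3.90 (SE 0.24, edgeR FDR = 2.11e-07), beside 0.0818 and 0.708 FPM of the overlapping Chrna4. Col18a1 was at 4.12, 3.99, 2.57 and 3.36 FPM and then at 8.50, 8.49, 7.08 and 5.57 FPM. It was higher in all acid libraries and rose by 1.06 (SE 0.22, edgeR FDR = 0.00141), in the direction opposite to NRK-52E, but was not called with name number 21 alone (1.06, edgeR FDR = 0.034). Of the type VI chains tested only Col6a2 was called, and the difference between the chains was not tested. Col6a2 was at 510, 492, 433 and 668 FPM and then at 294, 279, 348 and 379 FPM, without overlap, and fell by 0.71 (edgeR FDR = 0.000919), a call that ended with name number 21 alone (−0.62, edgeR FDR = 0.0603). Col6a1 was at 367, 348, 270 and 478 FPM and then at 462, 391, 528 and 609 FPM, overlapped, and was not called (log2 fold change 0.43, edgeR FDR = 0.0433). Counts of Col6a2 per count of Col6a1 averaged 1.45 (1.39 to 1.60) at pH 7.4 and 0.658 (0.623 to 0.715) at pH 6.0.

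Col8a1, the most abundant third-class gene by counts in NRK-49F, was at 1560, 1570, 1090 and 1200 FPM at pH 7.4 and 1180, 1030, 1080 and 1260 FPM at pH 6.0. The groups overlapped, and the log2 fold change was −0.27 (edgeR FDR = 0.109). With name number 20 alone it was −0.50 and called (edgeR FDR = 0.00162), with 21 alone 0.01. Col8a2 lay between 0.633 and 1.60 FPM at pH 7.4 and between 0.221 and 0.617 FPM at pH 6.0 and was not called (log2 fold change −1.32, edgeR FDR = 0.0179), except with all 16 libraries in 1 fit (−1.29) or at an FDR below 0.05. Col6a6 had 1 count over the 4 control libraries and 5 over the acid ones. Of 26 members tested in at least 1 line, 6 were called lower in both (23.1%, beside 8.55% of 14604 such genes), 1 higher in both (Col20a1; 8.08% of all) and 1 in opposite directions (Col18a1; 3.66% of all). A further 10 were called lower (16.6% of all) and 3 higher (16.6% of all) in NRK-52E without a call in NRK-49F, and 7 of these, Col2a1, Col4a3, Col4a4, Col6a6, Col9a2, Col17a1 and Col23a1, were not tested in NRK-49F (26.9%, beside 5.31% of all). The last 5 were called in neither line (19.2%, beside 32.4% of all).

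**Figure D2:**
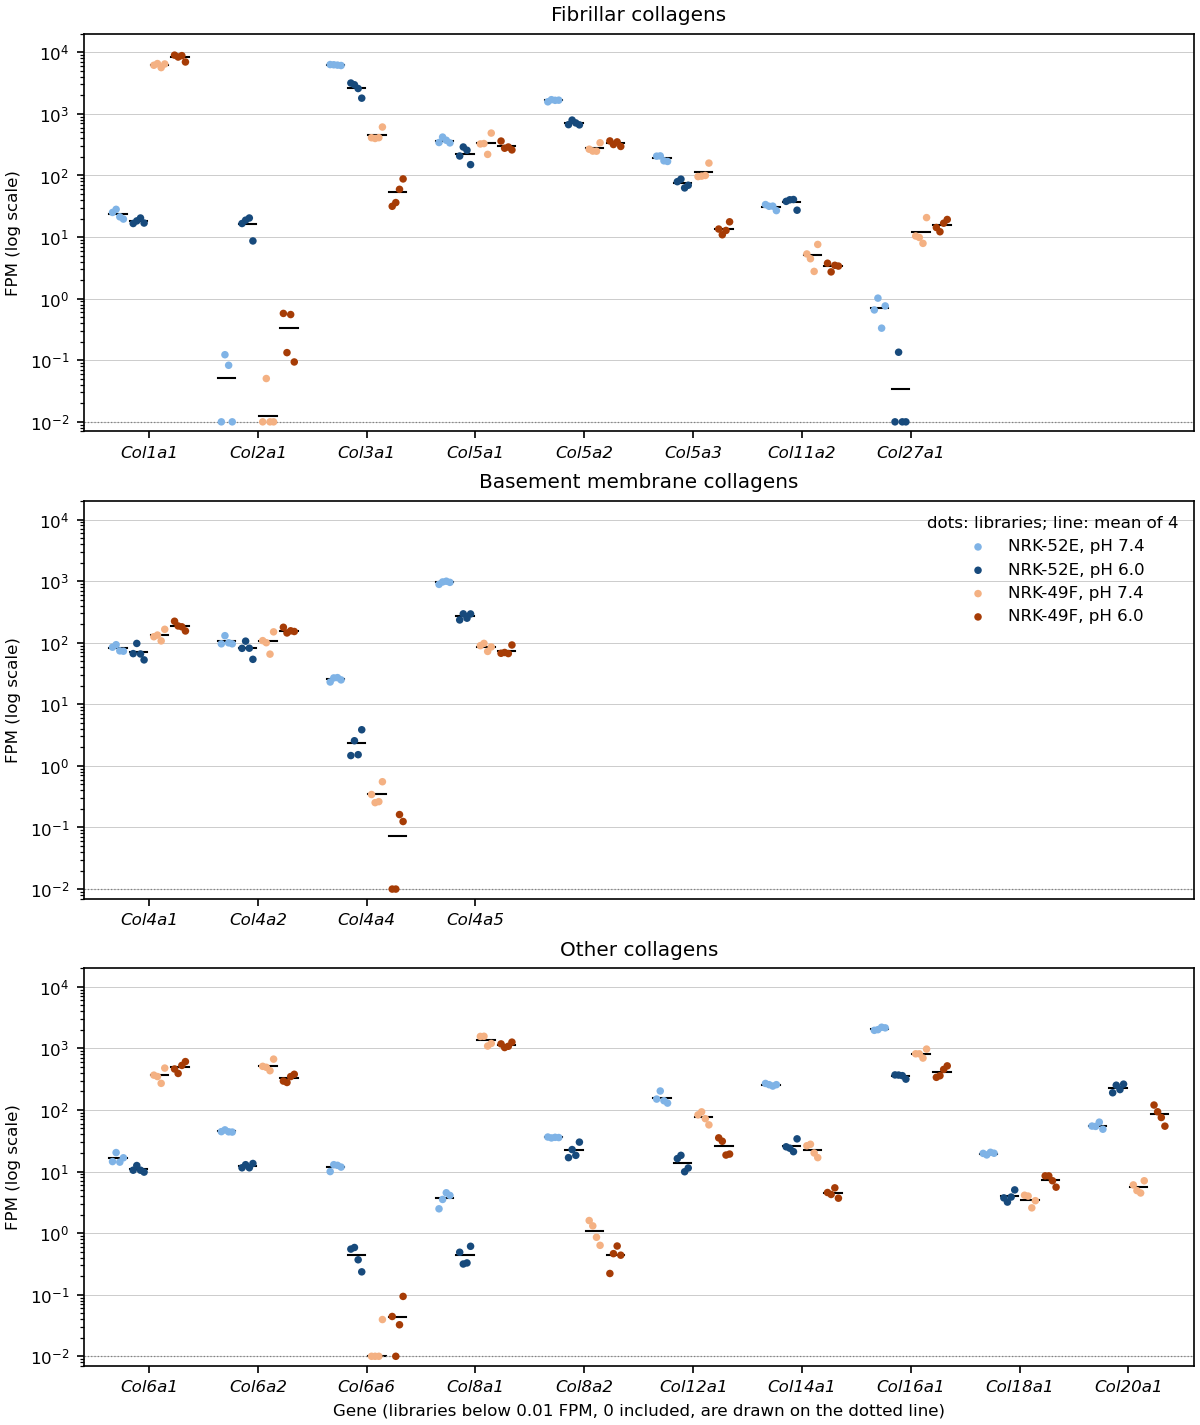
Level (FPM, log scale) of the described collagen genes in each of the 16 libraries by cell line and pH, arranged by class. Col3a1 lay at 6100 to 6320 FPM in NRK-52E at pH 7.4 and at 31.6 to 87.9 FPM in NRK-49F at pH 6.0, and Col1a1 at 16.6 to 28.2 FPM in NRK-52E and at 5640 to 8990 FPM in NRK-49F.

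Whether the pH effect itself differed between the lines was tested as an interaction in 1 edgeR model of all 16 libraries, called at an edgeR FDR below 0.01. Of 26 members tested 17 were called, 65.4%, beside 37.0% of all 14679 genes tested. The effect was more positive in NRK-49F for 14 members (17.6% of all genes) and more negative for 3 (19.4% of all genes), and the median difference was 0.98 over the collagens tested (0.62 without a filter on low counts) and 0.01 over all genes. With library totals in place of TMM the median of all genes moved to 0.25 and that of the collagens to 1.22. The 16 members outside the test had too few counts. Of the 17 called, Col6a6, Col27a1 and Col17a1 were tested for pH in 1 line only, for lack of counts in the other. Their calls do not show that the lines respond differently.

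Fibrillar genes differed in both directions. Col5a2, which fell in NRK-52E only, had a difference of 1.50 (SE 0.15, edgeR FDR = 3.99e-07), and Col1a1 one of 0.82 (SE 0.18, edgeR FDR = 0.000965). Col3a1 and Col5a3, which fell in both lines, fell further in NRK-49F, with differences of −1.83 (SE 0.35, edgeR FDR = 0.000326) and −1.68 (SE 0.24, edgeR FDR = 1.42e-05). Col5a1, the other type V chain, showed no called difference (0.53, edgeR FDR = 0.132). Counts of Col5a2 per count of Col5a1 averaged 4.51 and 3.29 in NRK-52E and 0.85 and 1.12 in NRK-49F at pH 7.4 and pH 6.0. Col27a1 was called as well, on 0, 3, 0 and 0 counts in acid NRK-52E libraries against 14, 25, 8 and 16 at pH 7.4. No difference is given for Col2a1, which had 1 count in all control NRK-49F libraries.

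In the basement membrane class Col4a5 had a difference of 1.62 (SE 0.17, edgeR FDR = 4.67e-07) and Col4a2 one of 0.98 (SE 0.29, edgeR FDR = 0.00871). The latter was lost in 12 of 16 fits that left out 1 library, those without replicates 2, 5 to 13, 15 or 16, with values from 0.81 to 1.03. Col4a1 was not called (0.71, edgeR FDR = 0.0163), but was without replicate 4 (0.90) or 14 (0.84), with library totals (0.94) and with the name number as a covariate (0.72). Among third-class genes described by library, the called differences were 3.39 for Col18a1 (SE 0.27, edgeR FDR = 2.46e-08), 2.84 for Col8a1, 1.94 for Col12a1, 1.88 for Col20a1, 1.59 for Col16a1, 1.18 for Col6a2, 1.06 for Col6a1 and 0.99 for Col14a1. Col6a6 was called as well, at a fitted 6.36 (edgeR FDR = 0.000145) that rests on 1 and 5 counts in the NRK-49F groups. For Col20a1 this means a larger rise in NRK-49F, for Col12a1, Col14a1, Col16a1 and Col6a2 a smaller fall. Col8a2 and Col11a2 had no called difference (−0.56 and −0.82), and Col11a2 passed without replicate 8 (−0.94) or 13 (−1.01).

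**Figure D3:**
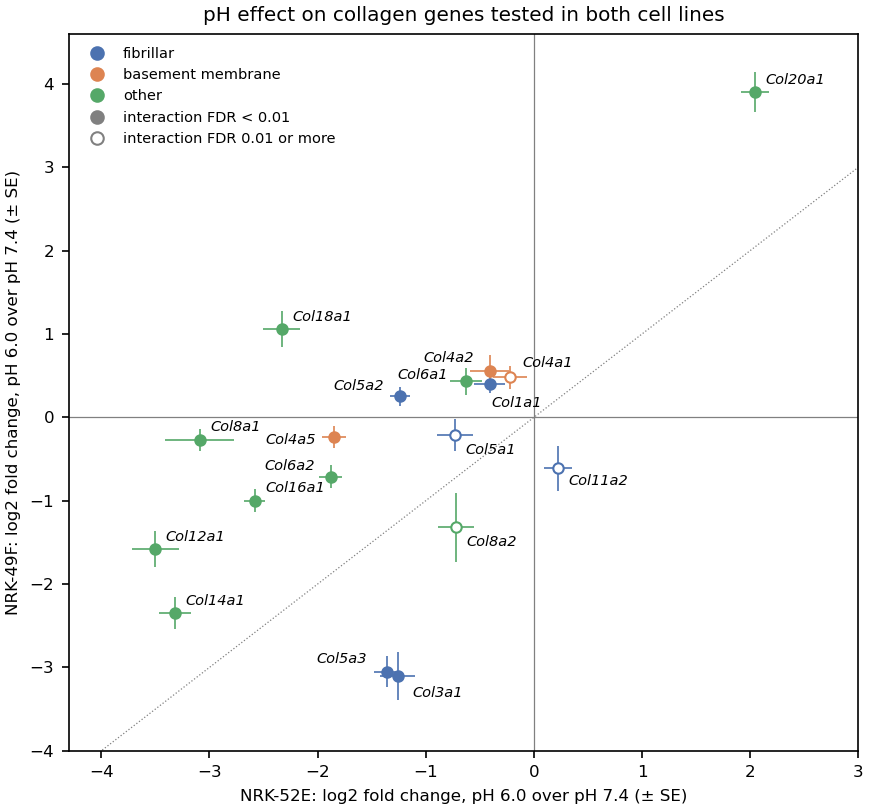
Log2 fold change at pH 6.0 over pH 7.4 in NRK-49F (vertical axis) against that in NRK-52E (horizontal axis) for collagen genes tested in both lines, with SE bars, class colours and filled points where the interaction had an edgeR FDR below 0.01. Col20a1 rose in both lines, Col18a1 fell by 2.33 in NRK-52E and rose by 1.06 in NRK-49F, and Col3a1 and Col5a3 lie below the line of equal effects.

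Between the lines, collagen levels differed by up to 2650-fold, the ratio of Col8a1 at pH 6.0. The cell line goes with the place in the co-culture, insert or well bottom, and the parts of line and place cannot be told apart. At pH 7.4, 20 of 23 members tested were called, 87.0%, beside 66.6% of all 14026 genes, with 6 higher in NRK-49F (33.3% of all genes) and 14 lower (33.3% of all genes). At pH 6.0, 21 of 23 were called, 91.3%, beside 59.8% of 13796 genes, with 9 higher (31.2% of all genes) and 12 lower (28.6% of all genes). The median log2 fold change of NRK-49F over NRK-52E was −1.44 at pH 7.4 and −1.08 at pH 6.0 over the collagens tested, and −0.03 and 0.03 over all genes. Under library totals the medians of all genes moved to −0.34 and −0.12. The collagen median at pH 6.0 was of the other sign, 0.24, where genes had to reach 1 CPM in 4 or more libraries, so its sign depends on the filter. In each of these comparisons 19 members were not tested. Those called include members that passed the filter on low counts through 1 line only, such as Col6a6 and Col9a2 at pH 7.4 and Col17a1 and Col23a1 at pH 6.0. For these the direction was set by the filter.

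Col1a1 and Col3a1 took opposite sides. Col1a1 averaged 23.6 FPM in NRK-52E and 6210 FPM in NRK-49F at pH 7.4, a log2 fold change of 7.96 (SE 0.16, edgeR FDR = 5.95e-12), and 8.86 at pH 6.0 (SE 0.19, edgeR FDR = 1.14e-11). Col3a1, given as a fibroblast marker, averaged 6220 FPM in NRK-52E and 458 FPM in NRK-49F at pH 7.4, a log2 fold change of −3.85 (SE 0.15, edgeR FDR = 8.70e-10), and −5.59 at pH 6.0 (SE 0.35, edgeR FDR = 3.19e-08). All libraries of one line lay on one side of all libraries of the other in both genes. Col5a2, Col5a3 and Col11a2 were lower in NRK-49F at both pH values, with log2 fold changes of −2.66, −0.82 and −2.68 at pH 7.4 and −1.08, −2.42 and −3.43 at pH 6.0. Col27a1 was higher in NRK-49F (4.06 at pH 7.4), and Col5a1 was not called at either pH (−0.20 and 0.41). Col2a1 was lower in NRK-49F at pH 6.0 (log2 fold change −5.50, SE 0.47, edgeR FDR = 5.21e-07).

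Within the basement membrane class, NRK-49F had less of the chains Col4a5 and Col4a4. Col4a1 was higher by 0.63 at pH 7.4 and by 1.42 at pH 6.0 on the log2 scale, and Col4a2 was not called at pH 7.4 (−0.08) and was higher at pH 6.0 (0.98). The call of Col4a1 at pH 7.4 ended with library totals (0.33, edgeR FDR = 0.0462), with the name number as a covariate (0.55, edgeR FDR = 0.0214) and with number 21 alone (0.55). Col4a2 at pH 6.0 was not called with the name number as a covariate (0.72, edgeR FDR = 0.0113). Col4a5 had log2 fold changes of −3.55 and −1.84 and Col4a4 of −6.17 and −4.67. Col4a3 was not called at pH 7.4 (−1.50, edgeR FDR = 0.0113). Counts of Col4a5 per count of Col4a1 averaged 0.661 (0.516 to 0.733) and 0.408 (0.302 to 0.592) in NRK-49F, below every NRK-52E library. Counts of Col4a2 per count of Col4a1 averaged 1.30 and 1.14 in NRK-52E and 0.782 and 0.852 in NRK-49F.

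Third-class genes held both the highest and some of the lowest differences. Col8a1 was at 3.65 FPM in NRK-52E and 1350 FPM in NRK-49F at pH 7.4 (log2 fold change 8.44, edgeR FDR = 3.59e-11) and at 0.436 and 1140 FPM at pH 6.0 (11.37, edgeR FDR = 5.12e-12). Col8a2, the other chain of type VIII collagen, was on the opposite side, at −5.12 and −5.60. Type VI genes Col6a1 and Col6a2 were higher in NRK-49F, by 4.39 and 3.47 at pH 7.4 and by 5.54 and 4.73 at pH 6.0. Col6a6 had 1081 counts in the NRK-52E controls and 1 in the NRK-49F controls. Col14a1 and Col20a1 were lower in NRK-49F at both pH values, at −3.58 and −3.36 and then −2.5 and −1.41.

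Some genes differed in sign or call between the media. Col16a1 was lower in NRK-49F at pH 7.4 (−1.42) and not called at pH 6.0 (0.25). Col12a1 went from −1.11 to 0.91 and Col18a1 from −2.56 to 0.92, called at both pH values. At pH 6.0 every NRK-49F library lay above every NRK-52E library in both genes, but the calls were near the threshold. Col12a1 was not called without replicate 3, 7, 8, 11 or 12 (0.73 to 0.98), nor Col18a1 without replicate 3, 4, 7, 11 or 12 (0.80 to 0.88). With the name number as a covariate, a fit in which only number 21 joins the lines, Col12a1 was at 0.13 (edgeR FDR = 0.598) and Col18a1 at 0.88 (edgeR FDR = 0.0295), and with library totals Col12a1 was at 0.77, none of them called. A higher level of either gene in NRK-49F at pH 6.0 is therefore uncertain. Among low members, Col9a2 was called lower in NRK-49F at pH 7.4 (−1.44), with 22 to 36 counts in NRK-52E and 2 to 18 in NRK-49F. At pH 6.0 Col17a1 (−3.42; 14 to 43 and 0 to 8 counts) and Col23a1 (−2.20; 11 to 16 and 1 to 5 counts) were called lower. All passed the filter on low counts through NRK-52E only, which set the direction in advance.

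Members not described by library stayed low. Of these 20, Col9a2 reached 1.30 FPM and Col17a1 1.66 FPM in their highest group, and 18 stayed under 1 FPM in every group. Col4a6 reached 0.688 FPM, Col23a1 0.667, Col4a3 0.778, Col9a3 0.49, Col6a5 0.351, Col7a1 0.269, Col10a1 0.13 and Col6a4 0.126 FPM in the highest group mean. Single libraries gave most of this for Col4a6 (replicate 14, 43 of 62 counts, 1.70 FPM beside 0.198 to 0.455) and much of it for Col7a1 (replicate 4, 0.584 FPM) and Col10a1 (replicate 12, 0.332 FPM). Col28a1 at 0.0992 FPM and Col11a1, Col15a1, Col24a1, Col25a1, Col19a1, Col9a1, Col26a1, Col22a1 and Col13a1 at 0.0552 FPM or less were near the limit of counting. Comparisons in which these genes did not pass the filter on low counts were not tested, among them all of Col6a5, which had 32 and 20 counts in the NRK-52E groups and 0 in every NRK-49F library.

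Genes that build and export collagen went in both directions in NRK-52E. Of 45 genes for collagen synthesis, processing and receptors, 37 were tested there, and 12 were called higher (32.4%, beside 28.2% of all genes) and 18 lower (48.6%, beside 28.5%) at pH 6.0, with a median of −0.63. The share called higher was thus near that of all genes. Of 9 genes for folding and export, which carry procollagen through the secretory pathway, 6 were called higher and 1 lower. Of 10 tested genes for propeptide removal and cross-linking, the steps outside the cell, 9 were called lower. Of 12 hydroxylation genes 5 went each way, and of 6 receptor genes 1 was called higher and 3 lower.

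Serpinh1, a chaperone of the endoplasmic reticulum that binds procollagen, was at 1520, 1370, 1130 and 1270 FPM in NRK-52E at pH 7.4 and at 3200, 3090, 3190 and 3180 FPM at pH 6.0. P4ha1, a catalytic subunit of the prolyl hydroxylase that stabilises the triple helix, was at 215, 211, 197 and 203 FPM and then at 619, 621, 696 and 534 FPM. All acid libraries were above all controls, and both genes rose, by 1.24 (edgeR FDR = 2.47e-06) and 1.56 (edgeR FDR = 2.57e-07). Sec24d and Sec13, coat proteins of the vesicles that leave the endoplasmic reticulum, rose by 1.54 and 1.37. Lox, which cross-links collagen, was at 550, 582, 534 and 478 FPM and then at 205, 225, 215 and 293 FPM. It was lower in every acid library and fell by 1.21 (edgeR FDR = 1.21e-05), without a call when only name number 22 was used (−1.01, edgeR FDR = 0.0123). Its relative Loxl1 fell by 3.48, Adamts2, which removes the amino-terminal propeptide, by 1.79, and Mrc2, an endocytic collagen receptor, by 1.85.

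In NRK-49F 40 of these genes were tested, and 12 were called higher (30.0%, beside 18.4% of all genes) and 9 lower (22.5%, beside 19.4%), with a median of 0.06. The share called lower was near that of all genes. Of 9 folding and export genes 5 were called higher, and of 10 processing genes 6 were called lower. Hydroxylation genes had 5 of 13 called higher and 1 lower, and receptors 2 of 8 in each direction. Serpinh1 was at 620, 581, 637 and 642 FPM and then at 1320, 1100, 985 and 685 FPM, where the acid libraries spread widely but stayed above the controls. It rose by 0.71 (edgeR FDR = 0.00329), a call lost without replicate 9 (0.70), 10 (0.68) or 12 (0.67). P4ha1 rose by 0.49, Colgalt1, which adds galactose to collagen, by 1.10, P3h1, another prolyl hydroxylase, by 0.91, Sec24d by 1.0 and Sec13 by 0.75. With name number 21 alone Serpinh1 (0.36, edgeR FDR = 0.226), Sec13 (0.40), Sec24d (0.71), P4ha1 (0.59) and P3h1 (0.66) were not called. Lox was at 522, 485, 400 and 336 FPM and then at 166, 125, 78.7 and 83.9 FPM, without overlap, and fell by 1.95 (edgeR FDR = 2.68e-05). Adamts2 fell by 1.29, Itga11, a collagen-binding integrin chain, by 1.10 and Loxl1 by 0.96, while Mrc2 was not called (−0.12).

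In the interaction test 19 of 42 tested genes of this pathway were called (45.2%, beside 37.0% of all genes), 14 more positive in NRK-49F (33.3%, beside 17.6%) and 5 more negative (11.9%, beside 19.4%). P4ha1 (−1.06) and Sec13 (−0.61) rose more in NRK-52E, and Loxl1 (2.53) fell more there. Mrc2 (1.73) was called lower in NRK-52E and was not called in NRK-49F. P3h1 (0.93) and Colgalt1 (0.58) had a more positive effect in NRK-49F. No difference was called for Serpinh1 (−0.52), Lox (−0.73), Sec24d (−0.53) or Adamts2 (0.51). Leaving out single libraries ended the calls of Sec13 in 10 of 16 fits and of Colgalt1 in 9, and brought in Serpinh1, Lox and Sec24d without replicate 11 (−0.66, −0.98 and −0.72) and Adamts2 without replicate 3 (0.70) or 14 (0.62). Adamts2 was also called with library totals (0.75), where Sec13 was not (−0.37). With the name number as a covariate Lox was called (−0.77, edgeR FDR = 0.00302) and Colgalt1 was not (0.58).

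Endothelial and leukocyte markers were read in the same way. Of 5 endothelial genes Kdr and Emcn were at 0 in all groups, and the sums of 42.0 and 7.98 FPM in NRK-52E came from Tek and those of 7.80 and 3.29 FPM in NRK-49F from Vwf. With the acid medium 1 of 2 tested was called lower in NRK-52E (28.5% of all genes) and 1 of 1 in NRK-49F (19.4%). Of 7 leukocyte genes Ptprc and Adgre1 were at 0 in all groups. Their sum was 2.47 and 3.58 FPM in NRK-52E and 81.3 and 243 FPM in NRK-49F. Cd68 gave 69.8 and 66.5% of it in NRK-52E and nearly all in NRK-49F, where it was called higher at pH 6.0 (18.4% of all genes). In NRK-52E 1 of 2 tested leukocyte genes was called higher (28.2%).

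Several collagens lie next to each other in the genome. All 42 members were found in RefSeq for the rat assembly GRCr8, and 4 pairs of members are neighbours there, Col4a1 with Col4a2, Col4a3 with Col4a4, Col3a1 with Col5a2 and Col9a1 with Col19a1. Col3a1 and Col5a2 both fell in NRK-52E, but in NRK-49F only Col3a1 was called. Col4a3 and Col4a4, whose chains join in 1 network, were both called lower in NRK-52E.

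Promoter sequence is shown for both type IV pairs, whose genes share an upstream region, and for Col20a1 and Col18a1, which rose in both lines or took opposite directions. Promoters of RefSeq (GRCr8) were at hand for 33 members, 16 of them described by library. The 250 bases before the start were searched on both strands for CCAAT, for GGGCGG and for TATAAA, none of which contains another. CCAAT was found in 4 of these 16, GGGCGG in 13 and TATAAA in 0, beside 34.0, 30.5 and 12.9% of 33469 promoters of the same length. The windows of Col4a1 and Col4a2, both among the 4 with CCAAT, overlap, because only 76 bases lie between their starts. These bases hold 0 CCAAT, so the CCAAT of each window reaches past the start of the other gene. The 1 GGGCGG between the starts counts for both genes. A match describes the letters only. Capitals mark CCAAT, which reads ATTGG on the other strand, and GGGCGG, which reads CCGCCC there, and all sequences are from the plus strand.
Col4a2 to Col4a1: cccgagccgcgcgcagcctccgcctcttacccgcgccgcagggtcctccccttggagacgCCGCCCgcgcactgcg
Col4a4 to Col4a3: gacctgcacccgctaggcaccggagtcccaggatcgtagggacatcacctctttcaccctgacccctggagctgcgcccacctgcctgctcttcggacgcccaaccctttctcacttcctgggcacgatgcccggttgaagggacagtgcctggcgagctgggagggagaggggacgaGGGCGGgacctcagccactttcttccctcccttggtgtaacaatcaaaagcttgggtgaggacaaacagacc
Col20a1: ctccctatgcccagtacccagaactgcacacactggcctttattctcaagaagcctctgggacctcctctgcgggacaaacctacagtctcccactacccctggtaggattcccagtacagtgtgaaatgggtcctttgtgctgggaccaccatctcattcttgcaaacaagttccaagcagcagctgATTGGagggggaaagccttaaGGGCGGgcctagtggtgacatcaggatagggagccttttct
Col18a1: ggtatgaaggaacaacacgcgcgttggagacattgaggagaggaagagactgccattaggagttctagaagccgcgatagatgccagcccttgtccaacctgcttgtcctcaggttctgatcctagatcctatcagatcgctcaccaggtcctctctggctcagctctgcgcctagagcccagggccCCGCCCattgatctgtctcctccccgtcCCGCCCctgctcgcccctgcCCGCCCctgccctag

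Between the starts of Col4a2 and Col4a1, which face away from each other, lie 76 bases at chr16:84885521-84885596, 78.9% of them G or C, with 1 GGGCGG. Windows of 76 bases before the start hold GGGCGG in 18.1%, CCAAT in 13% and TATAAA in 4.61% of promoters. The starts of Col4a4 and Col4a3 lie 412 bases apart, and the 250 bases before Col4a3, at chr9:91323740-91323989, hold 1 GGGCGG. Col20a1 has 1 CCAAT and 1 GGGCGG at chr3:188479252-188479501, and Col18a1 has 3 GGGCGG at chr20:11473395-11473644.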

How the data were processed

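RNA of 16 co-culture libraries was measured, 4 per line and medium. Paired reads of 150 bp were mapped by the authors to the rat genome rn6. The raw counts they deposited are featureCounts sums of exon fragments for Ensembl genes, and fragments with several map positions were counted too. The aligner is tophat2 in the study's methods and HISAT2 2.1.0 in the submitters' processing notes. The counting options given include none for strand and none for counting a fragment for several overlapping genes. How far overlapping genes on opposite strands touch each other's counts was not tested.

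Groups came from the sample labels, which write the media as pH 7 and pH 6. The values 7.4 and 6.0 are from the study's methods. FPM was computed with edgeR's cpm and TMM factors over 16 libraries. In R 4.3.3, edgeR 4.0.16 (quasi-likelihood test, TMM, filterByExpr) and DESeq2 1.42.0 (Wald test) were fitted to all genes in the 8 libraries of each comparison, and the interaction to all 16 with edgeR alone. SE was obtained from edgeR's F as |log2 fold change|/√F. No replicate pair agreed within sampling noise (smallest chi-square per degree of freedom 6.12).

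Described by library were Col1a1, Col2a1, Col3a1 and members with a group mean of at least 10 FPM. Of the synthesis, processing and receptor lists, the 3 largest rises and falls per line among called genes with at least 10 FPM were named, with P4ha1, Serpinh1 and Lox. Members, lists and marker lists (fibroblast, epithelial, cartilage, bone, endothelial, leukocyte) were chosen with earlier results of these data known. Alternatives were other scalings, filters, tools and thresholds, 1 fit of all libraries, the second number in the library names and each library left out. Crtap, Mia3, Pcolce2 and Pecam1 were not analysed here.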

Additional observations from a re-analysis of the deposited data

Results flagged for a closer look

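Single libraries stood apart in 8 of 118 groups of 4 libraries tested for it with Dixon's ratio, where chance gives about 1 in 20, so that their number is near the one chance gives. Replicate 14 of NRK-49F at pH 7.4 held 2 of these values, Col3a1 at 612 FPM beside 399 to 411 FPM and Col5a3 at 159 FPM beside 95.9 to 100 FPM in the other 3. Without it both genes were still called lower at pH 6.0. Replicate 16 of NRK-49F at pH 6.0 had Col4a5 at 91.8 FPM beside 66.6 to 69.4 FPM, and replicate 2 of NRK-52E at pH 7.4 had Col4a2 at 130 FPM beside 95.9 to 99.5 FPM. In the collagen pathway of NRK-52E, Serpinh1 was at 3090 FPM in replicate 4, Loxl1 at 3.20 FPM in replicate 8, Mrc2 at 5.66 FPM in replicate 7 and Adamts2 at 75.3 FPM in replicate 6.

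The interaction test of edgeR called a difference of pH effect between the lines in 17 of 26 collagens tested (65.4%, beside 37.0% of all genes). It also called 6 of the pathway genes named here, together 23. Most of these pathway genes were named for their large pH effects. Over all 42 tested genes of the pathway 19 were called (45.2%, beside 37.0% of all genes). On the log2 scale and as the effect in NRK-49F minus that in NRK-52E, the difference was 3.39 for Col18a1, 2.84 for Col8a1, 1.94 for Col12a1, 1.88 for Col20a1, 1.62 for Col4a5, 1.59 for Col16a1, 1.50 for Col5a2, 1.18 for Col6a2, 1.06 for Col6a1, 0.99 for Col14a1, 0.98 for Col4a2 and 0.82 for Col1a1. It was −1.83 for Col3a1 and −1.68 for Col5a3. The fitted values of 6.36 for Col6a6, 4.45 for Col27a1 and −4.42 for Col17a1 rest on very few counts. Col6a6 had 1 and 5 counts in the NRK-49F groups, and Col27a1 had 3 counts in NRK-52E at pH 6.0. Col17a1 had 12 in NRK-52E at pH 7.4 and 21 and 15 in the NRK-49F groups. The size of these values is uncertain, and the calls do not show that the lines respond differently. In the pathway the differences were 2.53 for Loxl1, 1.73 for Mrc2, 0.93 for P3h1, 0.58 for Colgalt1, −0.61 for Sec13 and −1.06 for P4ha1. With 1 library left out the call ended in 12 of 16 fits for Col4a2, 10 for Sec13 and 9 for Colgalt1. Why these effects differ was not tested.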

How the results depend on the processing

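Direction and call of the named genes held in 1279 of 1354 values from other scalings, filters, tools, thresholds or subsets, with 37 weaker, 34 stronger and 4 of changed sign. Of 1352 values with 1 library left out, 1277 held, 51 were weaker, 15 stronger and 9 changed sign. The second number in the library names, whose meaning is not given in the sources used here, split the libraries of a line and pH into pairs, and pairs leave fewer samples to test.

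The 4 collagens called higher in NRK-52E were 2 with at least 1 CPM in at least 4 libraries and 2 with number 22 alone. With number 22 alone, 5 pathway genes in place of 12 were called higher and 10 in place of 18 lower, and 2817 of all genes in place of 7800. The count of all genes called with number 21 alone was 1978 in place of 5038 in NRK-49F, 5673 in place of 9336 between the lines at pH 7.4 and 2548 in place of 5428 for the interaction. The 8 collagens called in NRK-49F were 13 with DESeq2 alone, 13 at an FDR below 0.05, 14 with number 20 alone and 5 with number 21 alone. Called higher among them (2) were 5 without a filter, 6 with DESeq2 alone, 6 at an FDR below 0.05, 6 with number 20 alone, 1 with number 21 alone, and 2 to 5 with 1 library left out. Pathway genes called in NRK-49F with number 21 alone were 4 higher in place of 12 and 5 lower in place of 9. In NRK-52E the collagens called were 17 to 22 with 1 library left out, beside 6788 to 8908 of all genes. In NRK-49F all genes called were 4122 to 4980 with 1 library left out. No count of all genes is given here for DESeq2 alone, an FDR below 0.05, number 20 alone or no filter. The collagen counts at these settings are therefore not compared with all genes.

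On library totals in place of TMM, the log2 ratio of summed collagens between the media in NRK-52E was −1.60 in place of −1.37, that of type IV genes −1.70 in place of −1.47 and that of the third class −2.21 in place of −1.99 (−2.06 with DESeq2's size factors). The median of all genes moved to −0.21 in NRK-52E, and of all calls there 37.6% in place of 49.7% were higher. At pH 7.4 between the lines this share was 34.3% in place of 50.0%, and for the interaction 66.3% in place of 47.7%. Collagens called were then 22 in NRK-52E, 20 at pH 7.4 and 18 for the interaction. The share of all genes called on library totals is not given here, so these counts are not compared with it.

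Signs changed only in values that were not called. P3h1 in NRK-52E (0.00) was 0.24 with number 22 alone and, without 1 library, 0.03 (replicate 1), 0.00 (2), 0.08 (3), 0.01 (4) and 0.05 (7), with −0.18 (8) the lowest. In NRK-49F, Col5a1 and Mrc2 were each 0.01 without replicate 14 and lowest without replicate 13 (−0.36 and −0.24), and Col8a1 was 0.01 with number 21 alone. Col4a2 between the lines at pH 7.4 was 0.01 with all 16 libraries in 1 fit, 0.04 without replicate 2, 0.10 without replicate 13 and −0.29 without replicate 14. The interaction of Col8a2 was 0.41 with number 21 alone. The causes were not tested. Replicates are numbered from 1 to 16 over all groups, so the numbers give no pairing, and none was used. The lines shared a medium, but the labels do not say which libraries came from the same co-culture. Libraries of both lines were therefore tested as independent. The second number is shared by the media of a line, and with it as a covariate 128 values held, 5 calls ended and 3 were added. Between the lines that fit rests on number 21, the only one in both. With number 21 alone 23 calls ended, and with number 22 alone 5, those of Col5a1 (−0.83), Col8a2 (−0.58), Col6a1 (−0.63), Lox (−1.01) and Colgalt1 (0.62) in NRK-52E. Number 21 ended those of Col5a1 (−0.66), Col6a1 (−0.64) and Colgalt1 (0.41) in NRK-52E, of Col16a1, Col18a1, Col6a2 and 5 pathway genes in NRK-49F, of Col4a1, Col5a3 (−0.74), Col12a1 and Col18a1 between the lines, and of the interaction of Col27a1 (3.71), Col1a1 (1.01), Col4a2 (0.80), Col6a1 (1.22), P4ha1 (−0.92), Sec13 (−0.80), Colgalt1 (0.46) and P3h1 (0.94). With number 20 alone 6 calls were added in NRK-49F, Col1a1 (0.45), Col4a1 (0.67), Col4a2 (0.63), Col4a5 (−0.45), Col5a2 (0.41) and Col8a1 (−0.50).

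Depth limits the members under 1 FPM, and intervals between replicates do not cover separate cultures if the replicates were technical.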
